A study of Mus musculus with 8 samples.

Results

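The comparison set mouse embryonic stem cells treated with MM401, a compound made to block the MLL1 histone methyltransferase, beside cells of the same genotype in which the MLL1 gene itself had been deleted. It covered 16099 gene loci out of 61535 in the deposited tables. A locus entered if it carried a gene name, had the status OK in both groups and held at least 100 estimated counts in either group. Of 50060 named loci 49989 had the status OK in both groups, and 14965 of the 16099 reached the count minimum in both. In 1431 of the 16099 the authors' table joined several gene names under 1 value. The MM401 group received 100 µM of the inhibitor for 5 days. The Mll1-deleted group received 4-hydroxytamoxifen (4-OHT) at 5 µM for 5 days, which lets the Cre-ER TM recombinase cut the floxed Mll1 gene. Both groups were blastocyst-derived cells of genotype Mll1fl/fl; Cre-ER TM on the C57BL/6J background, kept with LIF and serum on mouse embryonic fibroblast feeder cells. An untreated group of the same genotype is quoted as context; the sources used here do not say whether it was kept in serum or in serum replacement. A further group with the kinase inhibitors called 2i is not used here. No group received a vehicle, or 4-OHT without floxed alleles, so the effects of the agents themselves and of MLL1 loss cannot be told apart. The sources used here do not name the driver of the Cre, how complete the deletion was or the number of clones. Each group had 2 libraries, called biological duplicates in the series' description, and the authors pooled them into 1 value per locus, so there is no replicate check and no p-value for any difference below. The tables held 76501619 estimated counts for MM401, 88203834 for Mll1-deleted and 84503307 for untreated cells.

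MLL1 is encoded by Kmt2a and adds methyl groups to lysine 4 of histone H3, a mark of active promoters. It works in a complex with WDR5, RBBP5, ASH2L and DPY30, and MM401 was designed against the contact of MLL1 with WDR5. HOX genes are its best known targets. Embryonic stem cells hold their undifferentiated state through factors such as OCT4 (Pou5f1), SOX2 and NANOG, while LIF acts through STAT3 and the cells' own FGF4 acts through ERK. Deletion removes the protein with all its functions, whereas an inhibitor can leave the protein in place and may act on other proteins.

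Values are FPKM (mapped fragments scaled by transcript length and library size). Square brackets hold the authors' interval, with a confidence level that the sources used here do not state. Log2 ratios are of FPKM + 1, MM401 over Mll1-deleted, and they understate the change of weakly expressed genes. A locus counts as higher or lower in MM401 cells if this ratio reached 1 or −1, that is 2-fold. Kmt2a (chr9:44803333-44884397, mm10) had 14.6 [10.3 to 18.8] in MM401 cells, 11.8 [8.71 to 14.9] in Mll1-deleted cells and 15.5 [11.4 to 19.7] in untreated cells, a log2 ratio of 0.28 between the treated groups. The intervals overlapped, and a value over the whole gene need not show the loss of a floxed exon, so it does not measure the deletion. The stem cell markers Pou5f1, Sox2, Nanog, Zfp42 and Esrrb were detected in both groups, at 294, 190.1, 289, 28.8 and 184 in MM401 cells and at 1008, 335, 380.4, 31.0 and 323 in Mll1-deleted cells. Fibroblast markers were detected too, with Col1a1 at 142 in MM401 cells and 55.3 in Mll1-deleted cells, and the cultures held feeder cells. In these bulk cultures fewer cells of a type and less RNA per cell cannot be told apart.

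Across the 16099 loci, 460 (2.86%) were higher and 541 (3.36%) lower in MM401 than in Mll1-deleted cells, and 15098 were neither. The authors' intervals were also separate at 339 (2.11%) of the higher and 401 (2.49%) of the lower loci. The median log2 ratio was −0.08, with quartiles of −0.39 and 0.26. Higher loci made up 46.0% of all calls, and 58.3% once that median was set to 0 (574 higher, 411 lower). The same share was 56.1% with a pseudocount of 0.1, 35.4% with a pseudocount of 5 and 57.5% from estimated counts, so which direction held more calls depended on the scale. Changes past 4-fold were few, with 26 loci higher and 27 lower. The loci that were higher had a median log2 ratio against untreated cells of 1.01 in MM401 cells and −0.26 in Mll1-deleted cells. For those that were lower the same medians were −1.12 in MM401 cells and 0.11 in Mll1-deleted cells. Both sets of ratios share the untreated group. Next to the count minimum, 4930590L20Rik entered with 35.3 counts in MM401 and 100.2 in Mll1-deleted cells, while Ttll11 stayed out with 99.9 and 29.4. Few counts did not always mean a low FPKM. Gm27286 entered with 81.5 and 100.2 counts, at 38.4 FPKM in MM401 and 47.2 in Mll1-deleted cells.

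**Figure D1:**
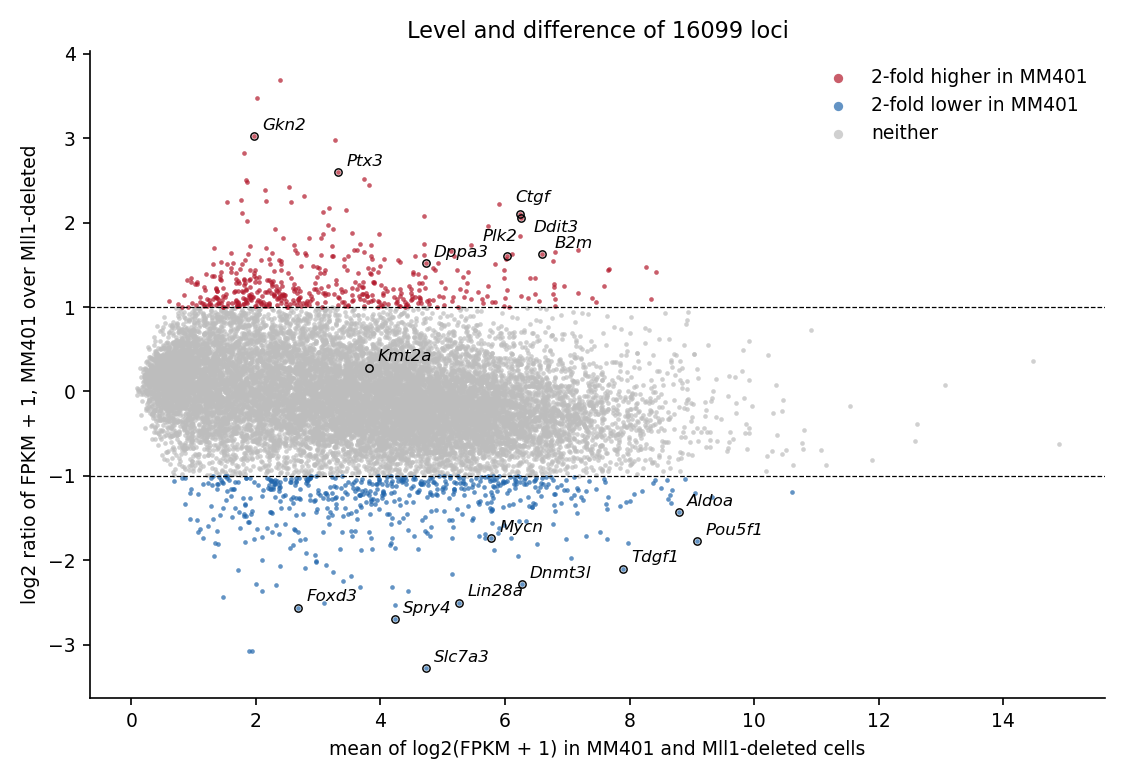
Each point is 1 of 16099 loci, with the mean log2 level of the 2 groups on the x axis and the log2 ratio of MM401 over Mll1-deleted on the y axis; red and blue points passed the 2-fold rule (dashed lines). Slc7a3, Spry4 and Lin28a lie among the lowest ratios, Gkn2 and Ptx3 among the highest, and Kmt2a lies near 0 at 0.28.

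Among loci with a single gene name, a level of at least 5, separate intervals and a 2-fold count ratio in the same direction, the arginine and lysine transporter gene Slc7a3 was lowest in MM401 cells. It had 7.51 [4.42 to 10.6] in MM401 and 81.8 [53.7 to 109.8] in Mll1-deleted cells (log2 ratio −3.28), against 167 [111 to 223] in untreated cells. Spry4, an inhibitor of receptor tyrosine kinase signalling, had 6.37 [5.15 to 7.59] in MM401 and 46.8 [38.3 to 55.4] in Mll1-deleted cells. The forkhead factor gene Foxd3, needed to maintain early embryonic progenitors, had 1.64 [0.895 to 2.38] in MM401 and 14.6 [11.2 to 17.99] in Mll1-deleted cells. For these genes the MM401 interval ended below the start of the Mll1-deleted one, and the ratios of Spry4 and Foxd3 were −2.70 and −2.56. Enpp3 (an ectonucleotidase), Trh (thyrotropin-releasing hormone) and Slc7a7 (an amino acid transporter) were at 6.80, 2.56 and 8.56 in MM401 cells and at 44.0, 19.2 and 48.3 in Mll1-deleted cells. For Trh the Mll1-deleted level was itself far below the untreated 102. Olig2, a basic helix-loop-helix factor best known from neural progenitors, had 7.10 in MM401 and 39.5 in Mll1-deleted cells. The rule also named Lin28a, described below, and the weakly annotated loci 1700057H21Rik and AC241534.4, with ratios of −2.44 and −2.36.

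At the other end, Gkn2, a secreted gastrokine known from the stomach lining, had 10.1 [7.80 to 12.4] in MM401 and 0.365 [0.0518 to 0.679] in Mll1-deleted cells, a log2 ratio of 3.02. Its neighbour Gkn1 had 5.29 [4.07 to 6.504] in MM401 and 0.331 [0.117 to 0.545] in Mll1-deleted cells. Untreated cells lay between the groups for both, at 4.96 and 2.13. The inflammation-induced pentraxin gene Ptx3 had 23.5 [19.04 to 28.0] in MM401, 3.04 [2.30 to 3.79] in Mll1-deleted and 3.12 [2.36 to 3.88] in untreated cells, so only the MM401 value stood apart. Ankrd1, a target of the YAP coactivator, had 7.47 in MM401 and 0.498 in Mll1-deleted cells. Inhba, which encodes the activin A subunit, had 11.9 in MM401 and 1.71 in Mll1-deleted cells. Vnn1 (a pantetheinase) and Ppp1r36 (a phosphatase subunit) had ratios of 2.38 and 2.27, each from under 1 FPKM in Mll1-deleted cells. Gm10800 and Gm10801, with ratios of 2.52 and 2.31, lie side by side on chromosome 2 and may share reads, so they are uncertain; both had their highest level of these groups in untreated cells.

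Of 12 core genes, 8 were lower, 0 higher and 4 neither, all 8 with separate intervals, and the list median was −1.27. Pou5f1, the gene of OCT4, had 294 [222 to 366] in MM401 cells, 1008 [793 to 1223] in Mll1-deleted cells and 874 [689 to 1059] in untreated cells. Tdgf1, the NODAL co-receptor also called Cripto, had 114 [91.1 to 136] in MM401 and 489.7 [410.0 to 569] in Mll1-deleted cells, a log2 ratio of −2.10. Its processed copy Tdgf1-ps1 had 108 in MM401 and 364 in Mll1-deleted cells, and reads of such copies can be split, so the single value of Tdgf1 is uncertain. The chromatin factor Utf1 had 103 in MM401 and 329 in Mll1-deleted cells, and L1td1, an RNA-binding protein gene, had 33.0 and 103 in the same order. Sall4 (−1.33), Dppa2 (−1.28), Zscan10 (−1.25) and Dppa4 (−1.06) were lower as well. Of the 4 that did not pass, Sox2 and Nanog are central to the circuit. Nanog had 289 [243 to 335] in MM401 and 380.4 [319.7 to 441] in Mll1-deleted cells with overlapping intervals, Zfp42 had 28.8 [22.8 to 34.8] and 31.0 [24.6 to 37.5], and Sox2 had a ratio of −0.82 with separate intervals. In the same cultures the fibroblast list described below had a summed level of 3826 in MM401 and 1793 in Mll1-deleted cells, with all 34 loci above 0, and its part in this and the other lists that were lower was not tested.

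In the list of naive pluripotency genes, which mark the ground state before implantation, 9 of 21 loci were lower, 1 was higher and 11 were neither (median −0.81). The lower ones were led by Gbx2, whose coordinates the tables share with D130058E05Rik, at 4.33 [3.22 to 5.43] in MM401 and 18.4 [14.5 to 22.4] in Mll1-deleted cells. Nr0b1 (DAX1) had 11.7 [9.20 to 14.2] in MM401 and 45.1 [36.6 to 53.6] in Mll1-deleted cells, and Tcl1, a coactivator of AKT kinase, had 18.4 [14.1 to 22.7] and 63.7 [50.3 to 77.1]. The 3 KLF factors differed in degree: Klf2 had 27.5 [22.3 to 32.6] in MM401 and 91.0 [74.3 to 108] in Mll1-deleted cells, Klf5 a ratio of −1.57 and Klf4 a ratio of −1.04. Untreated cells had 94.99 for Klf2, 195 for Klf5 and 189.6 for Klf4. Prdm14, a repressor of differentiation genes, was also lower (−1.26). Esrrb did not pass the rule at 184 [147 to 220.0] in MM401 and 323 [262 to 383] in Mll1-deleted cells, nor did the loci of Tfcp2l1 (0.29) and Tbx3 (−0.15), which join several names. A second, weaker Esrrb locus at the same coordinates had 2.82 in MM401 and 3.15 in Mll1-deleted cells (−0.12). Dppa3, also called Stella, a protector of maternal methylation marks, was the exception: it had 43.8 [35.5 to 52.2] in MM401 cells, 14.6 [11.5 to 17.7] in Mll1-deleted cells and 26.6 [21.2 to 32.0] in untreated cells.

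**Figure D2:**
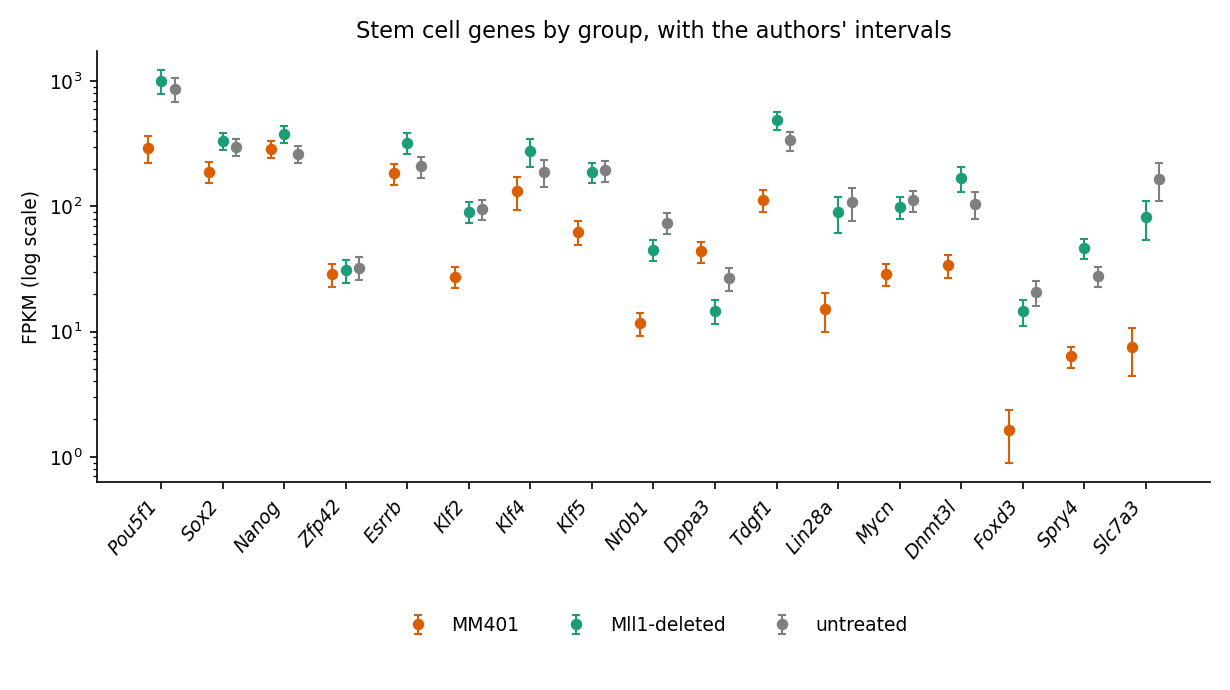
Points are pooled FPKM values per group on a log axis (MM401, Mll1-deleted, untreated), and bars are the authors' intervals. For Pou5f1, Klf2, Klf5, Lin28a, Mycn and Dnmt3l the MM401 interval lies below the other 2 groups, Zfp42 is at 28.8, 31.0 and 32.4, and Dppa3 is higher in MM401 cells.

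Formative and primed epiblast genes, which come up as stem cells leave the naive state, were lower at 7 of 18 loci and higher at 0 (median −0.67). Besides Foxd3, the joint Zic2 and Zic5 locus had 5.69 [4.03 to 7.34] in MM401 and 23.6 [17.5 to 29.6] in Mll1-deleted cells, below 75.5 in untreated cells. A separate Zic5 locus at the same coordinates is also among the 7, with a ratio of −1.07 and overlapping intervals. Etv4 had 32.1 [16.2 to 47.9] in MM401 and 105 [69.1 to 141] in Mll1-deleted cells, and Etv5 had 32.3 [20.96 to 43.7] and 86.1 [48.1 to 124]; both are ETS factors downstream of FGF. Fgf5 and Otx2, classical marks of the epiblast after implantation, did not pass and were below untreated cells in both groups. Fgf5 had 0.734 in MM401 and 0.473 in Mll1-deleted cells beside 8.66 in untreated cells, and Otx2 had 5.53 and 10.2 beside 33.2.

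Among FGF and ERK genes the medians differed by role, the roles here and below having been assigned after the values were seen. Among 20 ERK-responsive genes 6 were lower and 0 higher (median −0.36). The 11 feedback inhibitors and ETV factors had a median of −0.62 with 4 lower, while the 9 immediate early and delayed targets had a median of 0.25 with 2 lower. In the first role, Dusp6, a phosphatase that acts on ERK, had 20.2 [15.6 to 24.7] in MM401 and 47.3 [36.5 to 58.2] in Mll1-deleted cells, while Spry2 (−0.29) and Dusp4 (0.26) did not pass. In the second, cyclin D1 (Ccnd1) had a ratio of −1.16 and Ier2 of −1.07, but Egr1 had 73.0 in MM401 and 49.2 in Mll1-deleted cells, and Fos had 107 and 99.5. Of 15 loci for FGF ligands and receptors, 1 was higher, the receptor gene Fgfr4 (6.30 in MM401, 1.93 in Mll1-deleted cells), and 1 was lower, the joint Fgf17 and Dmtn locus (−1.16). Fgf4, the ligand stem cells make themselves, had 109 [88.5 to 130.2] in MM401 and 177 [149 to 205] in Mll1-deleted cells. Among 10 genes of the LIF pathway only Socs2, a feedback inhibitor of cytokine receptors, passed the rule, at 9.39 [6.21 to 12.6] in MM401 and 29.9 [18.6 to 41.1] in Mll1-deleted cells. Stat3 had 65.3 in MM401 and 71.6 in Mll1-deleted cells, and the receptor gene Lifr had 13.6 and 14.4.

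NODAL pathway members were lower at 5 of 19 loci and higher at 0, with a list median of −0.30. They included the co-receptor gene Tdgf1, the antagonist Lefty2 (2.08 [1.43 to 2.73] in MM401, 10.2 [7.17 to 13.2] in Mll1-deleted cells), the DNA-binding partner Foxh1 (5.71 [3.84 to 7.57] and 17.3 [13.1 to 21.6]), Inhbb (−1.095) and the Gdf3 locus (−1.101), which also holds Apobec1. Lefty2 was far below the untreated 57.1 in both groups, and Lefty1, at 9.80 in MM401 and 14.0 in Mll1-deleted cells, was below the untreated 89.0 in both without passing the rule between them. The ligand gene Nodal had a ratio of −0.72, and the signal transducers Smad2, Smad3 and Smad4 had ratios of 0.02, 0.36 and −0.03.

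BMP pathway genes were higher at 3 of 22 loci and lower at 1. The BMP antagonist Grem1 had 11.3 [9.15 to 13.4] in MM401 and 3.02 [2.396 to 3.64] in Mll1-deleted cells, and the untreated level was 11.5. Id2, a BMP-induced inhibitor of helix-loop-helix factors, had 17.2 [13.8 to 20.6] in MM401, 5.71 [4.41 to 7.02] in Mll1-deleted and 5.25 [4.03 to 6.46] in untreated cells. Bmp7 had 19.8 [15.6 to 24.1] in MM401 and 8.92 [6.84 to 11.003] in Mll1-deleted cells. A second, weaker Bmp7 locus at the same coordinates had 1.83 in MM401 and 1.30 in Mll1-deleted cells and did not pass (0.30). The ligand gene Bmp4 was lower (−1.02), with a ratio of −0.95 once the median was set to 0, and the list median was 0.31. The other ID genes did not pass, with Id3 at 29.1 in MM401 and 46.1 in Mll1-deleted cells and the locus of Id1 and H13 at a ratio of 0.40. Of 10 Wnt targets 1 was lower, Notum (1.91 in MM401, 6.91 in Mll1-deleted and 24.4 in untreated cells), a secreted enzyme that inactivates Wnt ligands; Axin2 had a ratio of −0.62, with overlapping intervals.

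Among genes that write or erase DNA methylation, 5 of 12 loci were lower in MM401 cells and 0 higher, with separate intervals at all 5, and the median was −0.82. Dnmt3l, the cofactor of the de novo methyltransferases, had 33.9 [26.6 to 41.2] in MM401, 169 [130.2 to 207] in Mll1-deleted and 104 [79.4 to 129] in untreated cells. Dnmt3a had 52.6 [32.7 to 72.4] in MM401 and 138 [89.2 to 186] in Mll1-deleted cells, and the Dnmt3b locus, which also holds Dnmt3c-ps, had 14.9 [10.4 to 19.3] and 35.3 [27.1 to 43.5]. Uhrf1, which guides the maintenance enzyme to replicated DNA, had 84.1 in MM401 and 189.5 in Mll1-deleted cells, and Dnmt1 itself had a ratio of −0.89. Of the TET enzymes, which oxidise methylcytosine, Tet2 had 16.2 [7.63 to 24.8] in MM401 and 44.9 [25.3 to 64.5] in Mll1-deleted cells, while the Tet1 locus (−0.58) and Tet3 (−0.19) did not pass.

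None of the 21 loci of the MLL and SET1 complexes passed the rule, with a list median of −0.47 and 18 loci below 0. Wdr5, the gene of the protein that MM401 was made to part from MLL1, had 93.5 [73.8 to 113] in MM401 and 173 [142 to 204] in Mll1-deleted cells, with separate intervals and a ratio of −0.88. The core subunit genes Dpy30, Ash2l and the Rbbp5 locus had ratios of −0.58, −0.25 and −0.61. The paralogue locus Kmt2b had 66.5 in MM401 and 66.3 in Mll1-deleted cells. Among 32 Polycomb loci, which place and read the repressive counterpart marks, 2 were higher and 2 lower (median −0.09). The higher ones included the chromobox gene Cbx8 (3.61 [2.23 to 4.99] in MM401, 1.29 [0.659 to 1.93] in Mll1-deleted cells), while Cbx7, the family member best known from stem cells, had a ratio of −0.62. The lower ones, Jarid2 (−1.01) and Phf19 (−1.14), had overlapping intervals. Of 30 loci of histone demethylases and deacetylases 2 were lower, the H3K4 demethylase genes Kdm5b (71.6 [47.0 to 96.3] in MM401, 168 [118 to 219] in Mll1-deleted cells) and the Y-linked Kdm5d (0.726 [0.483 to 0.969] and 2.85 [2.09 to 3.61]). Kdm5c had a ratio of −0.81 and Kdm5a of −0.10.

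LIN28A binds let-7 precursors and blocks their maturation, and 3 of 13 genes of this axis were lower in MM401 cells, with 0 higher and a median of −0.88. Lin28a (chr4:134003330-134019869, mm10) had 15.1 [9.92 to 20.3] in MM401 cells, 90.3 [61.5 to 119] in Mll1-deleted cells and 109 [76.5 to 141] in untreated cells, a log2 ratio of −2.50 between the treated groups. Lin28b was at 1.86 in MM401 and 4.26 in Mll1-deleted cells and did not pass. The let-7 targets Trim71 (in a locus with Ccr4) and Hmga1 had ratios of −1.33 and −1.01, and that of Hmga1 was −0.93 with the median set to 0. Hmga2, another let-7 target, had 9.82 in MM401 and 9.87 in Mll1-deleted cells. Within the MYC network, Mycn, the family member abundant in these cells, had 28.9 [23.2 to 34.5] in MM401, 98.8 [79.5 to 118] in Mll1-deleted and 112 [90.5 to 133] in untreated cells. Myc had a ratio of −0.21 and its partner Max of −0.15. Of 13 genes, 2 were lower (Mycn and, with overlapping intervals, Mxd3 at −1.04) and 0 higher.

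Cell cycle genes were lower in MM401 cells mainly at licensing and the G1 to S step. Of 42 loci 15 were lower, 12 of them with separate intervals, and 1 was higher (median −0.65). Among 13 loci for origin licensing and the replicative helicase 7 were lower, all 13 lay below 0, and the median was −1.01. Genes for G2 and mitosis gave 0 calls among 15 loci and a median of −0.25. In the helicase, Mcm5 had 68.2 [54.7 to 81.7] in MM401 and 175 [141 to 209.9] in Mll1-deleted cells, and Mcm6, Mcm3 and Mcm2 had ratios of −1.23, −1.11 and −1.07. Nucleotide supply and the DNA clamp were lower at 4 of 5 loci: Tyms had 22.3 [16.1 to 28.4] in MM401 and 60.0 [46.1 to 73.9] in Mll1-deleted cells, Tk1 −1.23, Pcna −1.12 and Rrm1 −1.04 as log2 ratios. Of the G1 and S regulators, cyclin E1 (Ccne1) had 33.7 [25.7 to 41.7] in MM401 and 84.7 [65.7 to 104] in Mll1-deleted cells, Cdk2 had a ratio of −1.06 and Cdk4 of −1.05. In mitosis, Cdk1 had 249 in MM401 and 345 in Mll1-deleted cells and Ccnb1 had 39.9 and 43.2. Ccnd2, the single locus that was higher, had an MM401 interval of 0 to 202 and a smaller ratio in the counts (0.88). Mcm10 has 2 loci in the tables, with ratios of −1.04 and −0.27; the second was near 1 FPKM.

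Targets of the p53 tumour suppressor were higher in MM401 cells at 9 of 29 loci, all with separate intervals, lower at 0, and had a median of 0.63. The stress kinase gene Plk2 had 114 [93.0 to 134] in MM401, 36.7 [29.9 to 43.5] in Mll1-deleted and 36.0 [29.3 to 42.6] in untreated cells. Mdm2, the ubiquitin ligase that removes p53, had 294 [216 to 372] in MM401, 123 [85.4 to 161] in Mll1-deleted and 126 [90.6 to 161] in untreated cells; a second Mdm2 locus at the same coordinates had a ratio of 1.51. The death receptor gene Fas had 8.001 [6.18 to 9.82] in MM401 and 2.07 [1.46 to 2.68] in Mll1-deleted cells. Btg2 (1.21), Polk (1.17), Gdf15 (1.154 at the stronger of 2 loci), Pmaip1 (1.12) and Perp (1.08) were the others. Cdkn1a, the gene of p21, had 269.8 [219.5 to 320.1] in MM401 and 144 [113 to 176] in Mll1-deleted cells, with separate intervals and a ratio of 0.90. The apoptosis genes Bbc3 (−0.14) and the Bax locus (−0.59) did not pass. The p53 gene itself, named here after its values were seen, was lower: Trp53 had 52.7 [34.2 to 71.1] in MM401, 137 [99.8 to 175] in Mll1-deleted and 169.7 [120.1 to 219] in untreated cells. Its processed copy Trp53-ps had 17.3 in MM401 and 47.4 in Mll1-deleted cells, so reads may be shared between them. The fibroblast list described below was higher too (sum 3826 in MM401, 1793 in Mll1-deleted cells), and its part in the p53 result was not tested.

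In the glycolysis and hypoxia list, of 33 loci 9 were lower in MM401 cells, 8 with separate intervals, and 1 was higher (median −0.60). The 16 loci of glycolytic enzymes had a median of −0.94 with 7 lower and 9 neither, while the 12 hypoxia response loci had a median of −0.11 with 1 higher and 1 lower. Hexokinase 2 (Hk2), which traps glucose in the cell, had 31.5 [25.1 to 37.9] in MM401 and 94.3 [78.6 to 110.0] in Mll1-deleted cells. Aldolase A (Aldoa) had 268 [213 to 323] in MM401 and 725 [597 to 853] in Mll1-deleted cells, and enolase 1 (Eno1) had 263 [209 to 317] and 617 [491 to 743]. The lactate dehydrogenase gene Ldha had 76.0 in MM401, 168 in Mll1-deleted and 264 in untreated cells. Pfkl (−1.22), the Pkm locus (−1.04) and Pgk1 (−1.002) were also lower. The lactate exporter gene Slc16a3 had 17.7 in MM401 and 42.6 in Mll1-deleted cells. Other isoforms of the same steps did not pass: Hk1 had 58.5 in MM401 and 50.3 in Mll1-deleted cells, and Pfkm had 38.5 and 32.3. Pdk1, a kinase that inhibits pyruvate dehydrogenase, had 36.3 [18.8 to 53.8] in MM401 and 123 [66.7 to 179] in Mll1-deleted cells. Among hypoxia genes Vegfa (0.13), Car9 (0.57) and the Hif1a locus (0.34) did not pass. Pfkfb3, which makes the activator of phosphofructokinase, was higher, at 8.04 [5.26 to 10.8] in MM401 and 3.44 [2.58 to 4.29] in Mll1-deleted cells. Gapdh, Pgk1 and Pgam1 were listed at 9.55, 6.35 and 7.37 in MM401 cells, far under Aldoa; such genes have many processed copies in the mouse genome, so their values are uncertain.

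**Figure D3:**
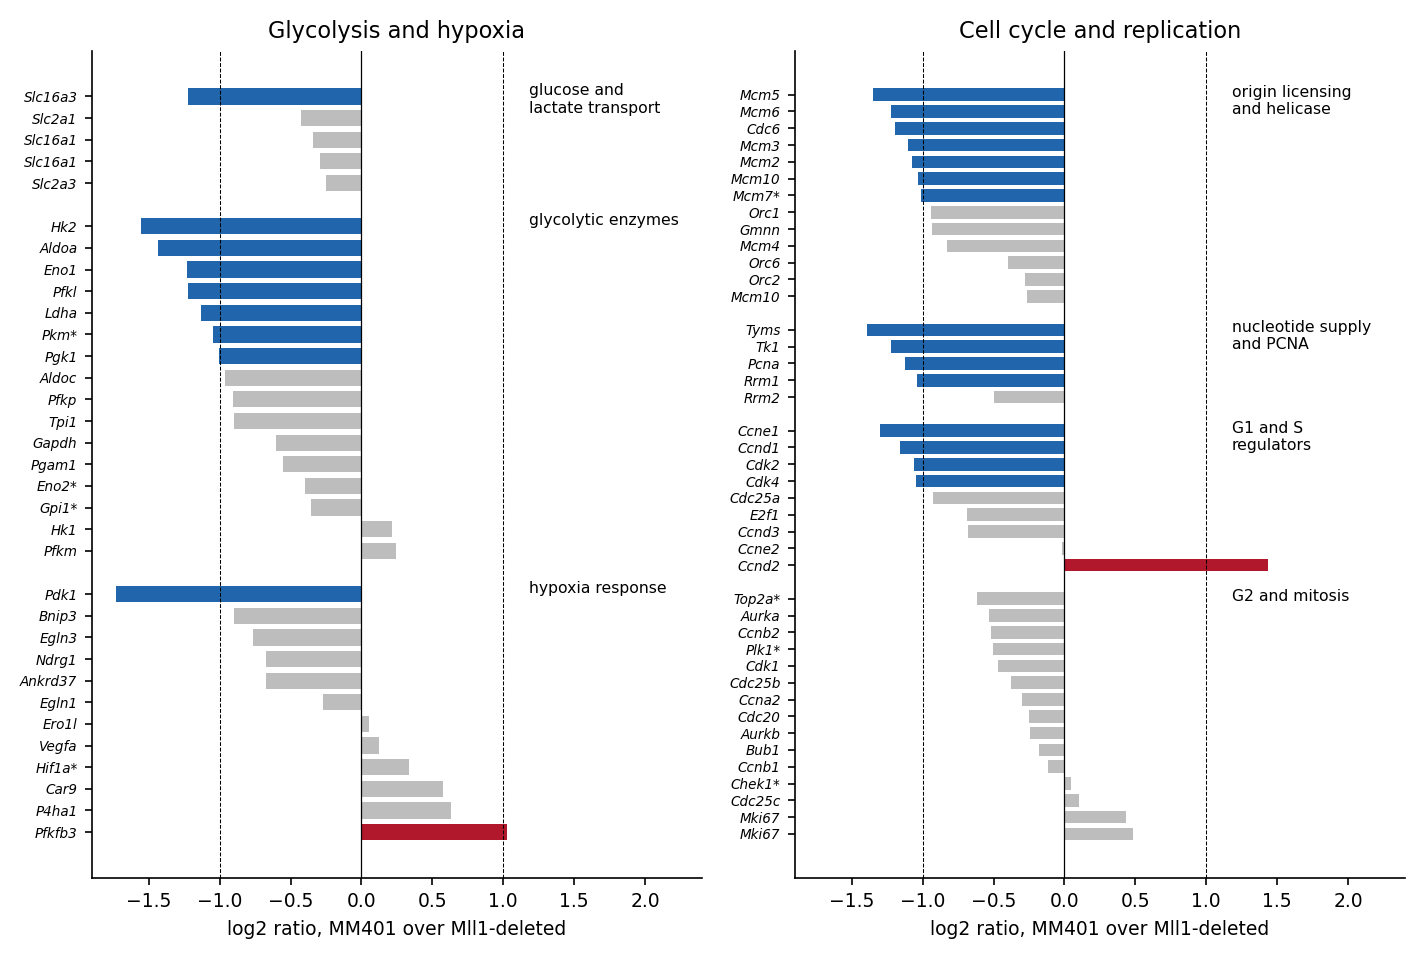
Bars are log2 ratios of MM401 over Mll1-deleted for each locus, grouped by role, with red or blue past the 2-fold rule (dashed lines) and an asterisk for loci that join several names. Licensing and enzyme genes crowd the left side, while the 15 G2 and mitosis loci stay within the lines and the hypoxia genes lie on both sides of 0.

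Promoters of genes of the glycolysis and hypoxia list are shown with the core ACGTG, which HIF factors are known to bind. The part of HIF in these differences was not tested. The list was chosen to hold hypoxia genes, so its share of this core does not bear on the difference between the groups. Of 29 glycolysis and hypoxia genes with a RefSeq promoter, 19 (65.5%) held ACGTG on either strand in the 250 bases before the start, against 18.5% of all 27025 promoters and 25.1% of the 9680 promoters of loci compared here. The share was 25.6% of 277 genes that were higher and 26.0% of 323 that were lower. ACGTG also lies inside the E-box CACGTG, a MYC-type site, which 6 of the 29 held. The motif was as common in the germline list, whose calls went both ways: 15 of 25 of its promoters (60.0%) held ACGTG and 44.0% the E-box. The sequences are from RefSeq on GRCm38.p6, 5′ to 3′ on the gene's strand up to the base before its start, with ACGTG matches (CACGT on the other strand) in capitals. Hk2 is at chr6:82774455-82774704 on the minus strand, Aldoa at chr7:126799255-126799504 on the minus strand and Ldha at chr7:46845554-46845803 on the plus strand, where 2 of the runs in capitals are E-boxes and thus match on both strands. Pfkfb3, the gene that was higher, is at chr2:11553930-11554179 on the minus strand and holds 1 match.
Hk2: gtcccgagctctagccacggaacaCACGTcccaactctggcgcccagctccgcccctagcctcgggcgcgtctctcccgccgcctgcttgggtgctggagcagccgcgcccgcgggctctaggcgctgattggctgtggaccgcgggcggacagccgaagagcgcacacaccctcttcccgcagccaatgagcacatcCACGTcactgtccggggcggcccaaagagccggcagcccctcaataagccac
Aldoa: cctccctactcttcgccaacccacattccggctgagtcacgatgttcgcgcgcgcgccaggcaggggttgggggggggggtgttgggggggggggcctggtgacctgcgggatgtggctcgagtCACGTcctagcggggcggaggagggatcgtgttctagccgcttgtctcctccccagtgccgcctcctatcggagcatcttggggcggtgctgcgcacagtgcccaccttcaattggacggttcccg
Ldha: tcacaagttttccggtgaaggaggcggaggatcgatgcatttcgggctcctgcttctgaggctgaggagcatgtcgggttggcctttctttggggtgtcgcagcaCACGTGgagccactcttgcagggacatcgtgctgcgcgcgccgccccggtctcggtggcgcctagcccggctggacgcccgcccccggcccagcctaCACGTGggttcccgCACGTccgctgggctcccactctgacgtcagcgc
Pfkfb3: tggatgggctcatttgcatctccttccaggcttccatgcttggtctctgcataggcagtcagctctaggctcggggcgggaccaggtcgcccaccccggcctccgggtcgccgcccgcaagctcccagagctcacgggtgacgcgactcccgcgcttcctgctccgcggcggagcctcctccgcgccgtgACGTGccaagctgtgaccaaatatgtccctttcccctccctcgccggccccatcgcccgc

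The ATF4 programme, which raises amino acid synthesis and uptake under stress, was lower at 5 of 20 loci and higher at 1 (median −0.73), and 3 of the 6 loci for serine, glycine and asparagine synthesis were among the lower ones. Shmt2, the mitochondrial serine to glycine enzyme, had 86.2 [57.5 to 115] in MM401 and 235 [159 to 311] in Mll1-deleted cells. Phgdh, the first enzyme of serine synthesis, had a ratio of −1.096, and asparagine synthetase (Asns) had 329.6 [234 to 425] in MM401 and 680.2 [512 to 848] in Mll1-deleted cells. All 5 tRNA synthetase loci were below 0, between −0.78 and −0.51, and none passed. Atf5, a factor related to ATF4, had 31.2 [12.4 to 50.05] in MM401 and 68.6 [36.6 to 101] in Mll1-deleted cells, and its exons overlap Nup62 on the other strand. Chac1, a glutathione-degrading enzyme induced by ATF4, had 11.3 [9.02 to 13.5] in MM401 and 37.2 [30.2 to 44.1] in Mll1-deleted cells. Ddit3, the gene of the stress factor CHOP, stood against the rest at 156 [104 to 207] in MM401, 36.6 [10.2 to 63.0] in Mll1-deleted and 41.2 [14.3 to 68.0] in untreated cells. Its exons overlap Mars on the other strand, and since it is not given whether counting used strand, reads of the 2 genes cannot be told apart. Atf4 itself had 192 in MM401 and 258 in Mll1-deleted cells. None of 17 unfolded protein loci passed the rule (median −0.06), with the chaperone gene Hspa5 at 609 in MM401 and 448 in Mll1-deleted cells.

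Chac1 and Asns carried the ATF4 composite core TGATGNAA (N for any base), which 6 of 18 genes of the list (33.3%) and 3.91% of all promoters held on either strand. The list was drawn up around ATF4, so its share does not bear on the difference between the groups. The core was held by 2.27% of the 9680 promoters of loci compared here. It was held by 3.25% of 277 genes that were higher and 5.26% of 323 that were lower. The Chac1 and Asns promoters are printed in the same form, with the match in capitals. Chac1 is at chr2:119350992-119351241 on the plus strand, with the match on the opposite strand, and Asns at chr6:7693210-7693459 on the minus strand.
Chac1: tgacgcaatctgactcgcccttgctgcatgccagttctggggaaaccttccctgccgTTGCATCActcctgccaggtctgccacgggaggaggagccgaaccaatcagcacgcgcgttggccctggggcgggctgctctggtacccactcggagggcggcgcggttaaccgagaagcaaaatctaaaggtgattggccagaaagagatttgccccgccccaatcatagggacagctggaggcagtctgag
Asns: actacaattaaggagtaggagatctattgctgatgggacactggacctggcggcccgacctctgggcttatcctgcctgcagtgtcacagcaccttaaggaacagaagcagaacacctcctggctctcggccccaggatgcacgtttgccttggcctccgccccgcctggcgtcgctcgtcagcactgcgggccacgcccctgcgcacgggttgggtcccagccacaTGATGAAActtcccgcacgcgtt

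Amino acid transporters were lower at 3 of 23 loci and higher at 1 (median −0.27). Next to Slc7a3 and Slc7a7, the glutamate transporter gene Slc1a3 had 3.18 in MM401 and 9.12 in Mll1-deleted cells. Slc7a2, another carrier of arginine and lysine, was higher, at 6.62 [5.03 to 8.21] in MM401 and 2.51 [1.95 to 3.06] in Mll1-deleted cells. The abundant glutamine carrier gene Slc1a5 had 196 [138 to 254] in MM401 and 389 [287 to 491] in Mll1-deleted cells, a ratio of −0.98. In the glucose-sensing list 1 of 8 was higher, Mlxipl (the factor ChREBP), at 7.71 in MM401 and 2.20 in Mll1-deleted cells. Txnip was high in both groups, at 740.1 [530.2 to 950.1] in MM401 and 506 [366 to 645] in Mll1-deleted cells, beside 135 [89.5 to 180.0] in untreated cells. Large housekeeping groups shifted by less than 2-fold. The medians were −0.56 for 37 ribosome biogenesis loci (36 below 0, 0 called), −0.38 for 79 cytosolic ribosomal protein loci (2 lower, Rpl39l at −1.33 and Rpl27 at −1.12), −0.36 for 34 proteasome loci, −0.24 for 74 respiratory chain loci and −0.27 for 32 lipid synthesis loci. The proteasome list had 1 lower locus, Psmb5 with Mir686 (−1.19, overlapping intervals). Ribosomal protein genes have many processed copies, so their single values are uncertain.

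Fibroblast genes, listed as markers of the feeder cells, all had higher values in MM401 cells. Of 34 loci 17 were higher, 15 with separate intervals, 0 were lower and all 34 lay above 0 (median 0.98). Their summed level was 3826 in MM401, 1793 in Mll1-deleted and 2749 in untreated cells, and none was listed at 0. The MM401 sum was thus the highest of the 3 groups. Collagens and other matrix genes were higher at 10 of 18 loci: Col1a1 had 142 [112 to 172] in MM401 and 55.3 [39.8 to 70.8] in Mll1-deleted cells, periostin (Postn) had 141 [107 to 176] and 38.8 [28.9 to 48.7], and the collagen cross-linking enzyme Lox had 104 [87.0 to 120.2] and 25.8 [20.96 to 30.7]. Genes of the contractile apparatus and targets of YAP or TGF-beta were higher at 5 of 6 loci with a median of 1.65. Ctgf had 155 [111 to 199.7] in MM401, 35.5 [25.3 to 45.6] in Mll1-deleted and 49.1 [31.8 to 66.3] in untreated cells, and Thbs1 had 331 [277 to 386], 121 [102 to 141] and 143 [119 to 166]. Surface markers and transcription factors of fibroblasts differed less, with 1 of 6 higher and a median of 0.67. Thy1 had 43.9 [31.8 to 55.9] in MM401 and 39.0 [27.8 to 50.2] in Mll1-deleted cells, Pdgfrb had 4.38 [3.53 to 5.23] and 2.93 [2.33 to 3.52], and Twist2 was the 1 that passed (1.21).

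Chemokines and secreted inflammatory proteins were higher at 7 of 15 loci, all with separate intervals, and lower at 0 (median 0.94). The protease inhibitor Slpi, in a locus with Mir7678, had 26.0 [20.1 to 31.8] in MM401 and 2.42 [1.16 to 3.68] in Mll1-deleted cells. The monocyte attractant Ccl7 had 78.9 [64.1 to 93.7] in MM401, 22.9 [18.3 to 27.5] in Mll1-deleted and 54.9 [44.4 to 65.3] in untreated cells, and Cxcl1 had 10.01 [7.78 to 12.2], 2.44 [1.71 to 3.18] and 7.31 [5.59 to 9.04]. For Ccl7 and Cxcl1 the untreated level was nearer to MM401 than to Mll1-deleted cells, while Slpi, at 5.23 in untreated cells, was nearer to Mll1-deleted cells. Ccl2 had 42.0 in MM401 and 25.8 in Mll1-deleted cells, both under the untreated 89.8. The fibroblast sum moved with them as given above, and its part in the result was not tested.

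**Figure D4:**
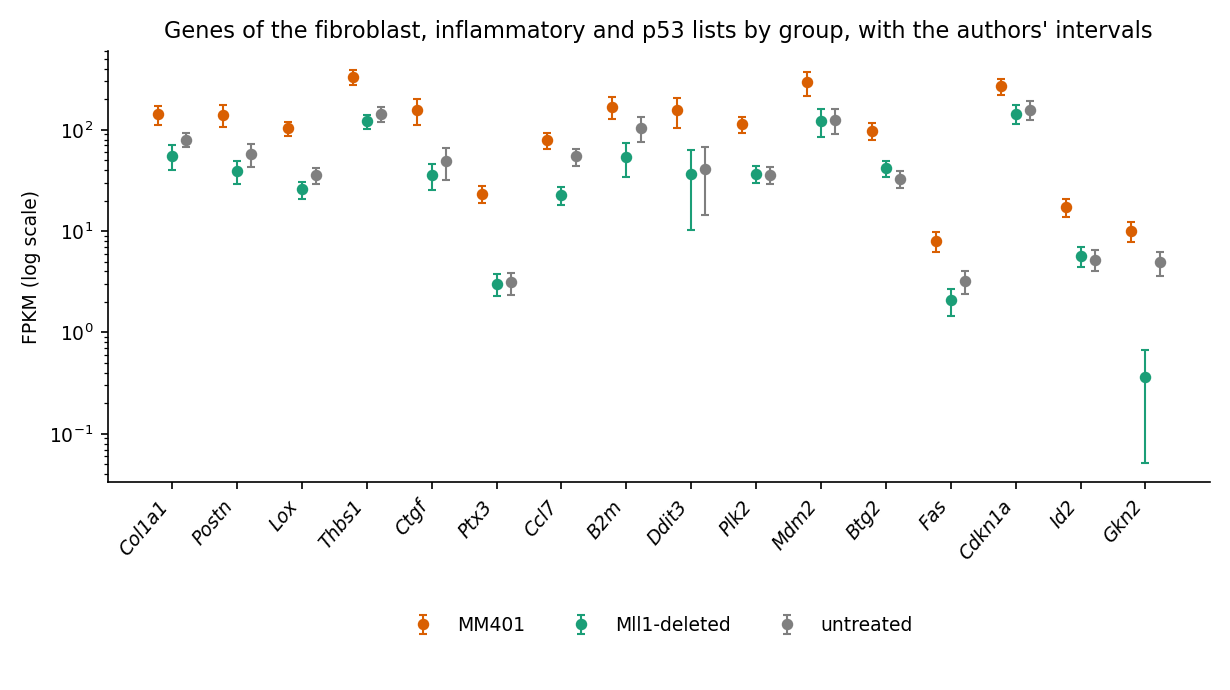
Points are pooled FPKM values per group on a log axis with the authors' intervals, for fibroblast, inflammatory, p53 and other genes that were mostly higher in MM401 cells. Col1a1, Ccl7, B2m and Gkn2 have untreated levels between the other 2 groups, whereas Ptx3, Plk2 and Id2 are close in Mll1-deleted and untreated cells.

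Interferon response genes gave 4 higher and 2 lower of 26 loci (median 0.36), and the 2 directions held genes of different roles. Of the higher ones, 3 serve antigen presentation: B2m, the light chain of MHC class I, had 169 [128 to 211] in MM401, 54.0 [34.3 to 73.8] in Mll1-deleted and 105 [75.4 to 134] in untreated cells, and the peptide transporter Tap1 had 27.1 [18.6 to 35.6] in MM401 and 11.1 [7.48 to 14.8] in Mll1-deleted cells. The immunoproteasome gene Psmb8 (1.151) had overlapping intervals, and the chemokine Cxcl10 had a ratio of 1.12. The fibroblast sum (3826 in MM401, 1793 in Mll1-deleted cells) moved with these higher genes, and its part in them was not tested. The 2 lower loci belong to cytosolic RNA sensing: Ddx58, the gene of RIG-I, had 4.25 [3.11 to 5.40] in MM401 and 14.6 [11.5 to 17.8] in Mll1-deleted cells, and the Oas1a, Oas1g and Oas3 locus had a ratio of −1.11. Isg15 was at 2.27 in MM401, 0.862 in Mll1-deleted and 10.98 in untreated cells. All 27 HOX loci lay above 0, with 4 higher, 0 lower and a median of 0.57. Relative to all loci that median was 0.65, against 1.17 with a pseudocount of 0.1, 0.31 with a pseudocount of 5 and 1.20 from estimated counts. Some of the 27 loci, such as Hoxb7 with 190 counts in MM401 and 47.6 in Mll1-deleted cells, entered only through their MM401 count. For such loci the count minimum itself favoured a ratio above 0, which limits what the shared direction of the 27 can show. Hoxb7 had 1.92 [1.21 to 2.62] in MM401, 0.431 [0.169 to 0.693] in Mll1-deleted and 1.35 [0.892 to 1.80] in untreated cells, and Hoxa7 had 2.43 [1.17 to 3.69], 0.66 [0.274 to 1.05] and 1.26 [0.621 to 1.89]. The joint Hoxb3, Hoxb4 and Hoxb6 locus had 5.34 in MM401 and 1.89 in Mll1-deleted cells, and the Hoxb9 locus, which holds a miRNA and had intervals that began at 0, had a ratio of 1.65. The fibroblast list moved in the same direction, and its part in the HOX values was not tested.

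The lineage lists are small, and over all loci 2.86% were higher and 3.36% lower. Of 20 primitive endoderm loci 3 were higher and 2 lower (median 0.28). The endocytic receptor genes Cubn (2.89 [2.31 to 3.48] in MM401, 14.8 [11.9 to 17.6] in Mll1-deleted cells) and Amn (−1.06) were lower. The basement membrane genes Col4a1 (1.17, overlapping intervals) and Col4a2 (1.09) were higher. The factor Foxa2 was higher too (4.17 [2.94 to 5.40] in MM401, 1.27 [0.625 to 1.91] in Mll1-deleted cells). Untreated cells had 237 for Col4a1, 77.3 for Col4a2 and 6.08 for Foxa2. For all of these the untreated level was nearer to MM401 than to Mll1-deleted cells. The matrix genes Col4a1 and Col4a2 are also made by fibroblasts, whose list was higher as given above. The defining regulators Gata6 (0.43), Gata4 (0.59) and Sox17 (0.89) did not pass. Among 7 visceral endoderm transport genes Apoa2 was lower (9.001 in MM401, 32.3 in Mll1-deleted cells) and Fgg higher (2.90 and 0.67). In the trophectoderm list of 18, Sct (secretin) had 18.1 [14.0 to 22.3] in MM401 and 3.24 [2.02 to 4.47] in Mll1-deleted cells and Dlx3 had 3.41 [2.67 to 4.14] and 0.65 [0.443 to 0.856], whereas Hand1 was lower at 1.104 [0.428 to 1.78] in MM401 and 4.83 [2.88 to 6.79] in Mll1-deleted cells, with 0.392 in untreated cells. None of 9 primitive streak genes passed, and of 20 loci of the 2-cell-like state 1 was higher, Spz1 (2.28 in MM401, 0.631 in Mll1-deleted cells). Among 17 epithelial genes the tight junction gene Cldn4 was higher (133 [109 to 157] in MM401, 59.1 [48.2 to 70.0] in Mll1-deleted cells), while E-cadherin (Cdh1) had a ratio of −0.20. Retinoid genes gave 1 lower of 16, the receptor gene Rarg (−1.41), with overlapping intervals.

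Germline genes split within the meiotic programme, with 4 higher and 3 lower of 28 (median 0.14). The synaptonemal complex genes Sycp1 (16.9 [12.5 to 21.4] in MM401, 6.65 [4.18 to 9.12] in Mll1-deleted cells) and Sycp3 (1.05) were higher, as were Meioc (1.06) and Asz1 (1.07). Stra8, which starts meiosis, was lower at 8.24 [6.08 to 10.4] in MM401 and 21.4 [17.0 to 25.8] in Mll1-deleted cells, as were Fkbp6 (−1.20) and Tuba3a (−1.21). Dazl had 41.3 in MM401 and 41.9 in Mll1-deleted cells, and Dpep3 had 11.5 and 11.9 beside 1.47 in untreated cells. Of 29 imprinted loci 2 were higher and 3 lower (median 0.05), and only Dlk1, a Notch-related growth regulator, had separate intervals (24.6 [18.6 to 30.5] in MM401, 9.96 [6.61 to 13.3] in Mll1-deleted cells). The others were the Airn (1.01), Rian (−1.71), Snrpn (−1.30) and Grb10 (−1.01) loci, all with overlapping intervals. In the oxidative and xenobiotic list 3 of 19 were higher: haem oxygenase 1 (Hmox1) had 163 [133 to 194] in MM401 and 72.5 [58.9 to 86.0] in Mll1-deleted cells, the drug exporter Abcb1b 35.1 [23.9 to 46.3] and 15.6 [10.6 to 20.7], and Cyp1b1 11.6 [9.43 to 13.8] and 3.505 [2.81 to 4.20]. Nqo1, like Hmox1 a target of NRF2, had a ratio of 0.54. Among 11 heat shock loci 1 was lower, the Hspa8 locus (−1.31), which holds small nucleolar RNAs and had overlapping intervals. Of 20 lysosome and autophagy loci the transcription factor gene Tfeb was lower (13.6 [8.37 to 18.9] in MM401, 35.3 [20.9 to 49.8] in Mll1-deleted cells), although 16 of the 20 lay above 0 and the median was 0.40.

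**Figure D5:**
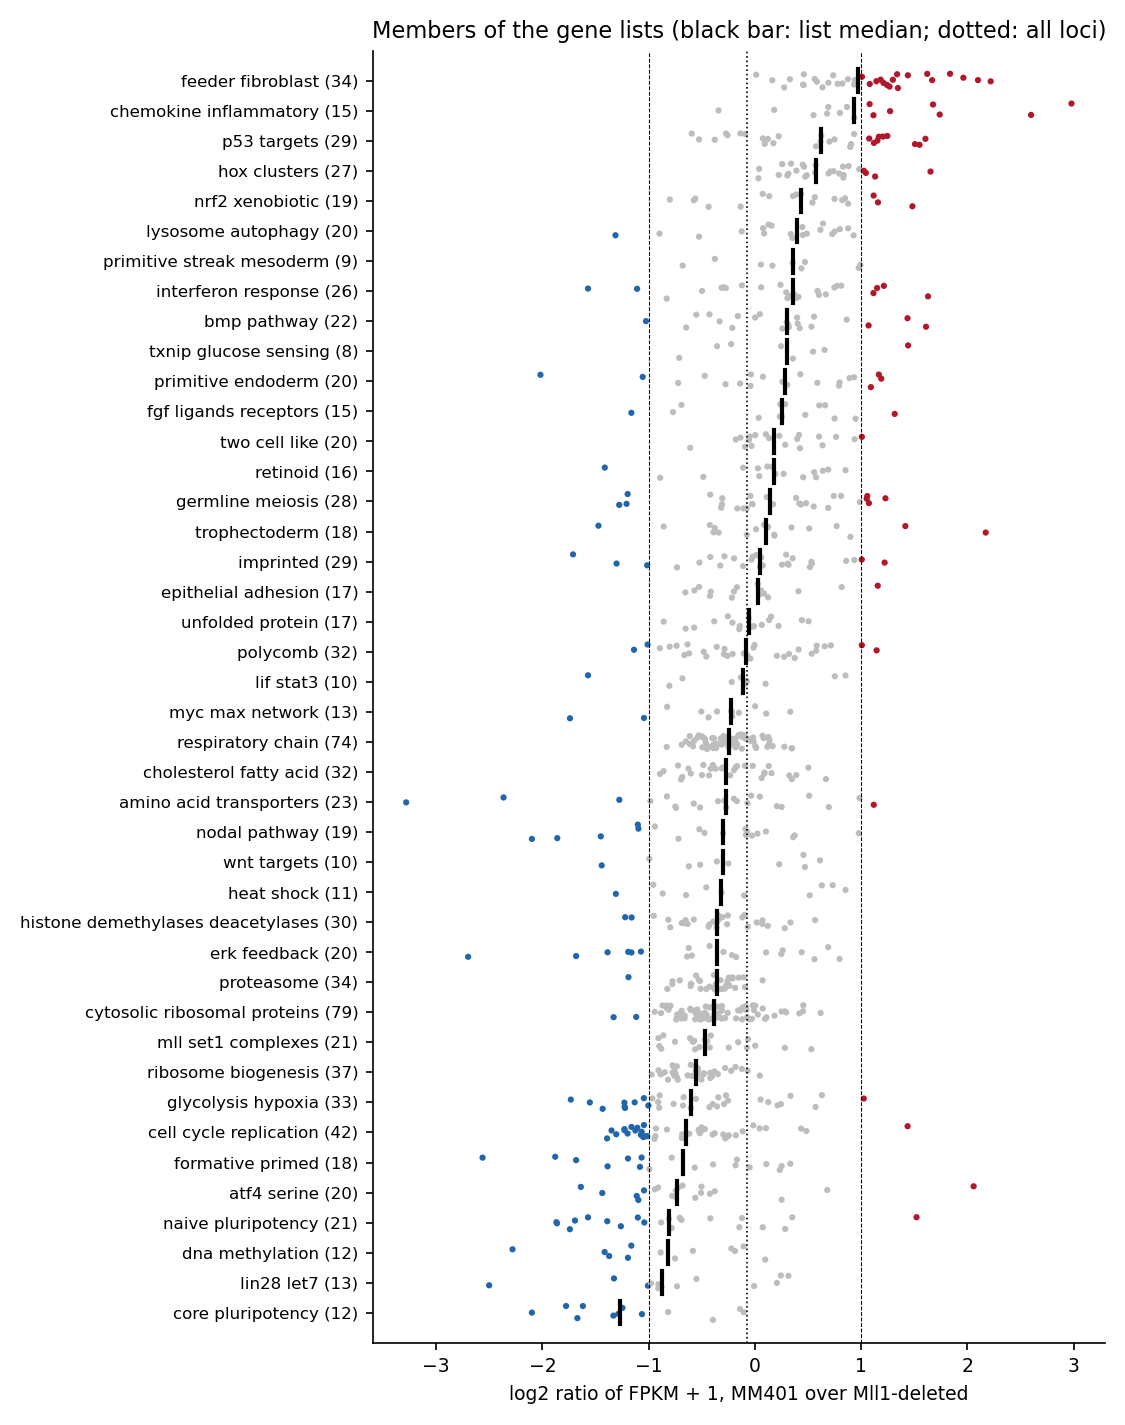
Each row is a gene list with at least 8 members (number in brackets), each point a locus by its log2 ratio of MM401 over Mll1-deleted, and the black bar the list median; the dotted line is the median of all loci and dashed lines mark 2-fold. Medians run from −1.27 for core pluripotency to 0.98 for feeder fibroblast genes.

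Set beside all loci, 24 of the 43 lists had a median below −0.08 and 19 above it. In 15 lists the calls were lower only, in 8 higher only, in 14 in both directions, and 6 lists had none. Some named genes rest on reads that may be shared. Of 107 named loci with a single name, 30 overlap an exon of a gene on the other strand, among them Pou5f1 (Gm19553), Lin28a (Gm13061), Dnmt3l (Aire), Slc7a7 (Oxa1l), Aldoa (Fam57b), Shmt2 (Ndufa4l2), Tap1 (Psmb9), Lox (AC161119.1), and Col4a1 with Col4a2, and it is not given whether counting used strand.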

How the data were processed

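RNA-seq of 8 libraries (4 groups of 2) was deposited by the authors as 2 tables over 61535 loci. One holds FPKM with an interval and a status, per the file headers, and the other holds estimated counts, which need not be whole, deposited by the authors per the file headers; both have 1 column per group. The program that made them and its use of strand are not given in the sources used here. Tools were TopHat2 2.1.1, SAMtools 1.5 and deepTools with the build mm10, per the submitters' processing notes, which give them no roles. RNA came from RNeasy columns and libraries from a TruSeq kit, per the labels' protocols. Rows with no gene name held 0.405% of the MM401 and 0.357% of the Mll1-deleted counts and were left out.

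Ratios were computed in Python 3.11.15 with numpy 2.4.6 and pandas 2.3.3 as log2 of (FPKM + 1), and figures drawn with matplotlib 3.10.9. The call rule was run on simulated large changes with weak loci left out, which shows nothing about false calls or about weak loci. With pooled columns no test, SD or library-level fit was possible, and nothing was rounded or fitted. Members and the 43 gene lists were chosen with earlier results of these data known. Named genes were Kmt2a; the 10 largest ratios each way among loci with 1 name, FPKM of at least 5 in either group, separate intervals and a 2-fold count ratio (pseudocount 10); and up to 4 called members per list; some of these genes are not reported here. All others, and the roles within lists, were chosen after their values were seen. The authors' starts were shifted by 1 to count from 1. Alternatives were other pseudocounts, count minimums, thresholds, counts in place of FPKM, centring, single-name loci and separate intervals. FPKM per count differed by over 10% between groups at 22.7% of loci, which moves the FPKM ratio away from the count ratio. Promoters were cut from RefSeq windows (GRCm38.p6).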

Additional observations from a re-analysis of the deposited data

How the results depend on the processing

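The balance of calls turned with the processing. No named locus that passed the rule changed sign, but most alternatives could not have turned one. Other pseudocounts and count minimums keep the direction of a ratio, and centring moved ratios by only 0.08. Only estimated counts could turn a sign, and the top genes had been picked with a count ratio in the same direction. As reported, 460 loci were higher and 541 lower in MM401 than in Mll1-deleted cells. Lower calls were the more frequent as reported, and higher calls were with a pseudocount of 0.1, with no count minimum, from estimated counts and after centring. The counts were 1117 higher and 873 lower with a pseudocount of 0.1, 136 and 248 with a pseudocount of 5, 914 and 837 with no count minimum, 1193 and 882 from estimated counts with FPKM set aside, and 1590 and 2229 at 1.5-fold. A minimum of 500 counts, centring, single names or separate intervals left both counts within 1.5 times. Of 119 named loci, 37 missed the threshold with a pseudocount of 5. From estimated counts 5 missed it (Ccnd2, Hmga1 and the Rian, Hoxb9 and Hspa8 loci), as did 5 after centring (Bmp4, Grb10, Hmga1, Jarid2 and Mxd3). Genes described above but chosen outside these 119 are not in those numbers. Of these, Klf4 (−1.04 as reported), Dppa4 (−1.06), Asns (−1.04) and Pgk1 (−1.002) also miss the threshold after centring. So do Cdk2, Cdk4 and Rrm1. Dppa4 misses it from estimated counts as well (−0.97). List medians, taken relative to all loci, moved most for chemokines (0.48 with a pseudocount of 5) and HOX genes (1.17 with a pseudocount of 0.1, 1.20 from counts). The causes were not tested beyond the weight a pseudocount gives to weak loci. No paired analysis was possible because the deposited columns pool the 2 libraries of each group, and for the same reason no library could be left out. Precision is known only through the authors' intervals, and the depth of single libraries is unknown.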

Other observations

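Several genes outside the lists, all chosen after their values were seen, had large ratios with separate intervals. Ptgs2 (cyclooxygenase 2) had 21.98 [12.4 to 31.5] in MM401 and 4.16 [1.58 to 6.74] in Mll1-deleted cells, and its neighbour Pla2g4a, a phospholipase gene, had 24.2 [15.4 to 32.9] and 7.47 [3.96 to 10.98]. The EGF receptor ligands Ereg and Areg had 7.03 and 6.87 in MM401 cells and 1.47 and 1.77 in Mll1-deleted cells. Tissue factor (F3), which starts coagulation, had 52.5 [42.6 to 62.4] in MM401 and 11.7 [9.32 to 14.0] in Mll1-deleted cells. Fabp3, a fatty acid carrier, had 256 [203 to 310.1] in MM401 and 79.5 [60.0 to 99.0] in Mll1-deleted cells. Fibroblasts express several of these genes, and the fibroblast sum given above moved the same way; its part was not tested.

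Among metabolic genes that were lower, Tdh, the threonine dehydrogenase typical of mouse embryonic stem cells, had 46.6 [35.8 to 57.5] in MM401 and 138 [107 to 168] in Mll1-deleted cells. Uridine phosphorylase (Upp1) had 47.9 [36.9 to 58.9] in MM401 and 171 [135 to 206] in Mll1-deleted cells. DNA ligase 1 (Lig1) had 51.4 [39.4 to 63.3] in MM401 and 133 [104 to 163] in Mll1-deleted cells, next to the licensing genes described above.

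Some called loci lay beside another called the same way, both with separate intervals. Gkn1 and Gkn2 lie 22414 bases apart, Olig2 and Olig1 (−1.86) 41094, Ereg and Areg 45952, and Dnmt3l and Pfkl 19503. Dppa4 and Dppa2 are followed by Morc1, with ratios of −1.06, −1.28 and −1.06. The keratin genes Krt17 and Krt42 had ratios of −1.67 and −2.25. How often such pairs occur by position alone was not tested.

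Over the autosomes and the X chromosome the median ratio ran from −0.15 on chromosome 17 to 0.00 on chromosome 1. On the Y chromosome 6 loci entered, with a median of −0.61 and mixed values: Uba1y had 3.98 [3.11 to 4.84] in MM401 and 7.82 [6.23 to 9.41] in Mll1-deleted cells, while Eif2s3y had 44.5 [33.8 to 55.2] and 38.3 [29.3 to 47.3]. Processed pseudogenes made up 7.91% of the loci matched to an annotation, 1.55% of those higher and 6.70% of those lower in MM401 cells.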
